A study of Macaca mulatta with 449 samples.

Results

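The olfactory bulb (OB) was compared with the neocortex of the same animals in Ribo-zero RNA-seq of the rhesus macaque brain, an assay that sequences total RNA after removal of ribosomal RNA. The OB side held the 8 libraries of region 1 and the neocortex side the 248 libraries of regions 2 to 27 and 29 to 33, out of 408 libraries in the count table. Within each animal the 31 neocortex libraries were added up and set against its OB library, with the animal as a block. The animals, numbered 2, 3, 4, 6, 7, 8, 10 and 11 in the labels, were untreated and healthy. Animals 7 and 8 were young males (4 and 3.8 years), 4 and 10 young females (3.2 and 5 years), 2 and 3 mid-aged males (both 10 years) and 6 and 11 mid-aged females (10 and 9.8 years). Each library was made from bulk tissue of a dissected region, so fewer cells of a type and less RNA per cell cannot be told apart.

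The OB is the first relay of smell in the brain. Axons of olfactory sensory neurons enter it wrapped by olfactory ensheathing cells and contact mitral and tufted cells, the glutamatergic output neurons, in glomeruli. Most of its neurons are GABAergic granule and periglomerular cells, some of them dopaminergic, which arise from progenitors of the ventral forebrain and subventricular zone under transcription factors such as *SP8*, *MEIS2* and *PAX6*, and some of which continue to be added after birth. The neocortex is dominated by glutamatergic projection neurons, with a minority of interneurons that carry *PVALB*, *SST* or *VIP*.

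Levels are given as CPM, the usual counts per unit of library size, here scaled by TMM over the 408 libraries, and the neocortex level of an animal is the mean of its 31 libraries. The log2 fold change (log2FC) of OB over neocortex, its SE and its FDR come from the quasi-likelihood test of edgeR with Benjamini-Hochberg adjustment over all genes tested. A gene was called higher or lower at FDR < 0.05 and a fold above 2. OB libraries had 8428364 to 17953107 counts on genes, and their mean difference from the neocortex libraries of the same animal was not distinguishable from 0 (exact sign-flip permutation test over 8 animals, two-sided, p = 0.781). A count was seen for 18266 to 20004 genes in the OB, 584 more on average than in a neocortex library of the same animal and more in 8 of 8 animals. The 50 most counted genes took 9.82% to 13.9% of the OB counts, with a mean difference from the neocortex of -2.0 percentage points and a lower share in 8 of 8 animals (exact p = 0.00781 for both measures, the smallest that 8 animals allow).

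The OB libraries of animals 3 and 4 stood apart from the other 6. Over the log2(CPM + 0.5) of the tested genes they correlated with each other at 0.983 but with the other 6 at 0.950 to 0.974, while those 6 correlated among themselves at 0.979 to 0.987. In the neocortex, where each level is a mean of 31 libraries, the corresponding ranges were 0.985 to 0.994 and 0.989 to 0.994. Correlations of means and of single libraries are not like for like. The OB libraries of animals 3 and 4 also had the fewest counts on genes (8428364 and 8562835, against 9770669 to 17953107). Their neocortex sums were the smallest as well (297336760 and 318435334 counts, against 332532455 or more). The part of depth was not tested. The levels of animals 3 and 4 lay below those of all other animals in the OB for 21.2% of the tested genes and above them for 16.6%. Against the neocortex, 7 members of the gene lists below changed their call without both animals, and their values are given with and without them.

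Of 18539 genes tested, 2230 were higher and 2133 lower in the OB, 23.5% of all genes. The background was thus 12% called higher and 11.5% called lower, and the median log2FC of all genes was -0.03. Without animals 3 and 4, 2338 genes were higher and 2044 lower, among them 93.4% of the genes higher and 89.6% of those lower with all 8 animals, and 0 were called in the opposite direction. At a fold above 4 there remained 730 higher and 809 lower genes. The OB level was above that of every neocortex library of the same animal in 8 of 8 animals for 882 of the genes called higher, and below every one of them for 826 of those called lower. Over all tested genes, 6.29% met the former condition and 6.94% the latter.

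**Figure D1:**
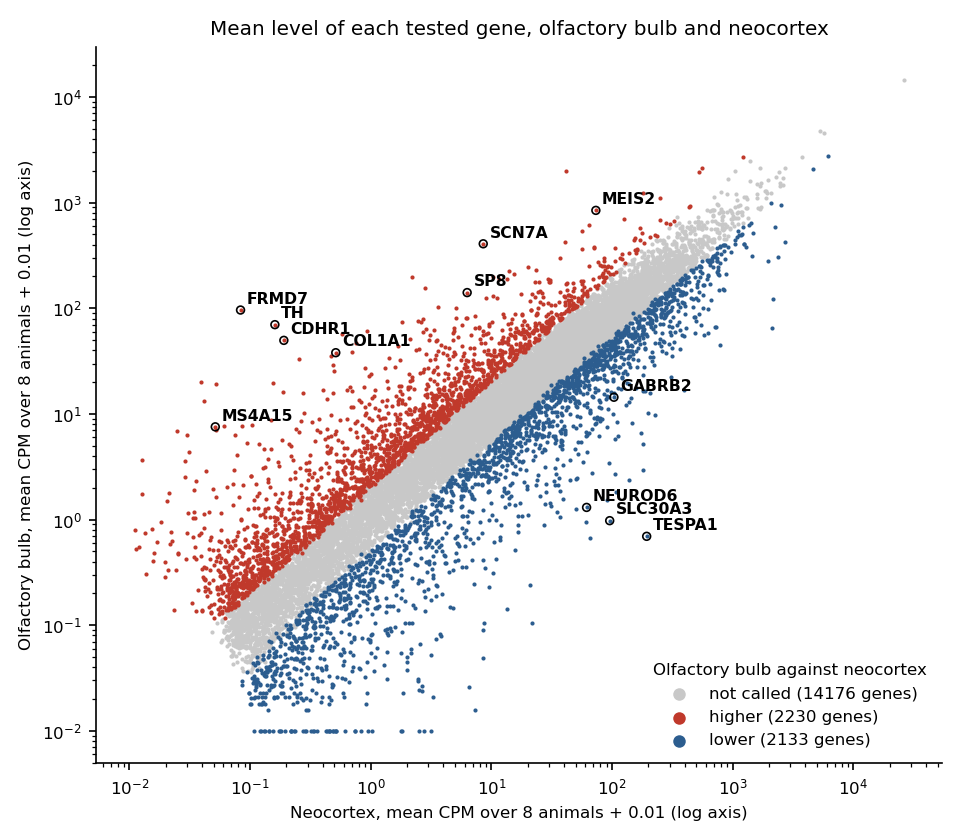
Mean CPM over 8 animals in the OB (y axis) and the neocortex (x axis), both on a log axis after adding 0.01, for the 18539 genes tested. Each point is a gene, red for the 2230 called higher in the OB, blue for the 2133 called lower and grey for those not called, and circled points carry their symbol. *FRMD7*, *TH* and *CDHR1* lie far above the grey band, and *TESPA1*, *NEUROD6* and *SLC30A3* far below it.

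The 3 genes that marked the comparison were higher in the OB in all 8 animals. *SP8* (ENSMMUG00000003722), a zinc finger transcription factor of OB interneurons, had 110 to 171 CPM in the OB (median 143) and 5.25 to 7.41 CPM in the neocortex (median 6.18). The groups did not overlap, and the log2FC was 4.47 ± 0.07 (SE, n = 8 animals, FDR = 4.27e-13). *FRMD7*, a FERM domain protein known for its part in a hereditary form of nystagmus, had 70.9 to 120 CPM in the OB (median 91.5) and 0.0458 to 0.125 CPM in the neocortex (median 0.0720). Its log2FC of 10.37 ± 0.16 (FDR = 3.02e-13) was the largest against the neocortex among the genes named here. *MS4A15*, of the membrane-spanning 4-domain family, had 3.38 to 13.3 CPM in the OB (median 7.01) and 0.00105 to 0.114 CPM in the neocortex (log2FC 7.55 ± 0.52, FDR = 5.59e-08).

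All 3 were above every neocortex library of the same animal in 8 of 8 animals, and in all 3 the OB had the highest mean of the 51 sub-regions. *SP8* was nevertheless present throughout the neocortex, where the means of the 31 sub-regions ran from 3.36 to 8.68 CPM, whereas those of *FRMD7* reached at most 0.200 CPM and those of *MS4A15* at 0.126 CPM. After the OB, *SP8* was highest in the inferior precentral gyrus (8.68 CPM), *FRMD7* in the accumbens nucleus (0.629 CPM) and *MS4A15* in the caudate nucleus (0.139 CPM). *MS4A15* was the marker that moved most without animals 3 and 4, to a log2FC of 8.44. Its OB levels in these animals (3.38 and 4.97 CPM) lay below the 5.94 to 13.3 CPM of the others. Its neocortex levels in them (0.0763 and 0.114 CPM) lay above the 0.00105 to 0.0418 CPM of the others.

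The 12 genes with the largest log2FC and at least 5 CPM in the OB included *FRMD7* and *MS4A15* but not *SP8*. Of the others, the dopamine synthesis genes *TH* and *DDC* and the mitral and tufted cell genes *CDHR1* and *NTS* are described with their groups. *NRK*, a kinase of the germinal center kinase family, had 12.4 to 38.5 CPM in the OB (median 19.5) and at most 0.0437 CPM in the neocortex (log2FC 9.32 ± 0.25). *KLRB1*, which encodes the lectin-like receptor CD161 of natural killer and T cells, had 3.84 to 8.47 CPM in the OB and at most 0.0438 CPM in the neocortex (log2FC 8.29 ± 0.23). The gene named *TMEM41A* in the reference, whose identifier carries the symbol *LIPH* in the supplement of the study, had 9.83 to 21.7 CPM in the OB and at most 0.0514 CPM in the neocortex (log2FC 8.69 ± 0.25).

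The extracellular matrix gene *MFAP4*, a microfibril-associated glycoprotein, reached 62.5 to 303 CPM in the OB (median 223) against 1.46 to 2.87 CPM in the neocortex (log2FC 6.35 ± 0.18, FDR = 2.66e-11). *MYOC*, which encodes myocilin, had 19.9 to 94.2 CPM in the OB and 0.195 to 1.02 CPM in the neocortex (log2FC 6.59 ± 0.29). *WDR64*, a WD repeat protein, varied more within the OB, from 6.01 to 33.1 CPM, but remained above its 0.0982 to 0.269 CPM in the neocortex in every animal (log2FC 6.35 ± 0.32). The OB and neocortex ranges of these genes did not overlap.

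The genes lower in the OB were ranked among those with at least 5 CPM in the neocortex. The 12 with the largest negative log2FC had at most 6.84 CPM in any OB library, that of *CCK*. *TESPA1*, known as a regulator of T cell receptor signaling, had 148 to 236 CPM in the neocortex (median 191) and 0.343 to 1.33 CPM in the OB (log2FC -8.21 ± 0.14, FDR = 4.93e-13). *SLC30A3*, the zinc transporter of glutamatergic synaptic vesicles, had 85.3 to 123 CPM in the neocortex and 0.235 to 1.64 CPM in the OB (log2FC -6.71 ± 0.19). *PRDM8*, a transcriptional repressor of projection neurons, had 82.9 to 103 CPM in the neocortex and 0.786 to 2.68 CPM in the OB (log2FC -5.91 ± 0.16), and the OB had the lowest mean of the 51 sub-regions. *TMEM155*, with 95.6 to 117 CPM in the neocortex, had 1.17 to 2.47 CPM in the OB (log2FC -5.95 ± 0.12).

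Receptor and channel genes were also among them. The serotonin receptor gene *HTR6* had 16.4 to 29.3 CPM in the neocortex and at most 0.565 CPM in the OB (log2FC -6.45 ± 0.25), and the potassium channel subunit gene *KCNS1* had 22 to 94.1 CPM and at most 1.75 CPM (log2FC -6.05 ± 0.21). *TAFA1*, a secreted chemokine-like protein of neurons, and *FFAR4*, a receptor of long-chain fatty acids, had at most 3 counts in each OB library. Against a floor of 3 counts per library they were at least 91.8-fold and 35.9-fold lower in the OB. *TAFA1* was below every neocortex library of the same animal in 8 of 8 animals, but *FFAR4* in 1 of 8. The neocortex sub-region means of *FFAR4* ran from 0.323 CPM in the posterior superior occipital gyrus to 21.2 CPM in the ventromedial prefrontal cortex. *MEPE*, *OTOS* and *KRT16* completed the group with log2FC of -6.68 ± 0.18, -6.60 ± 0.18 and -6.49 ± 0.39 (-5.86 for *KRT16* without animals 3 and 4). The neocortex and OB levels of none of the 3 overlapped, which the choice by log2FC and direction favoured.

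**Figure D2:**
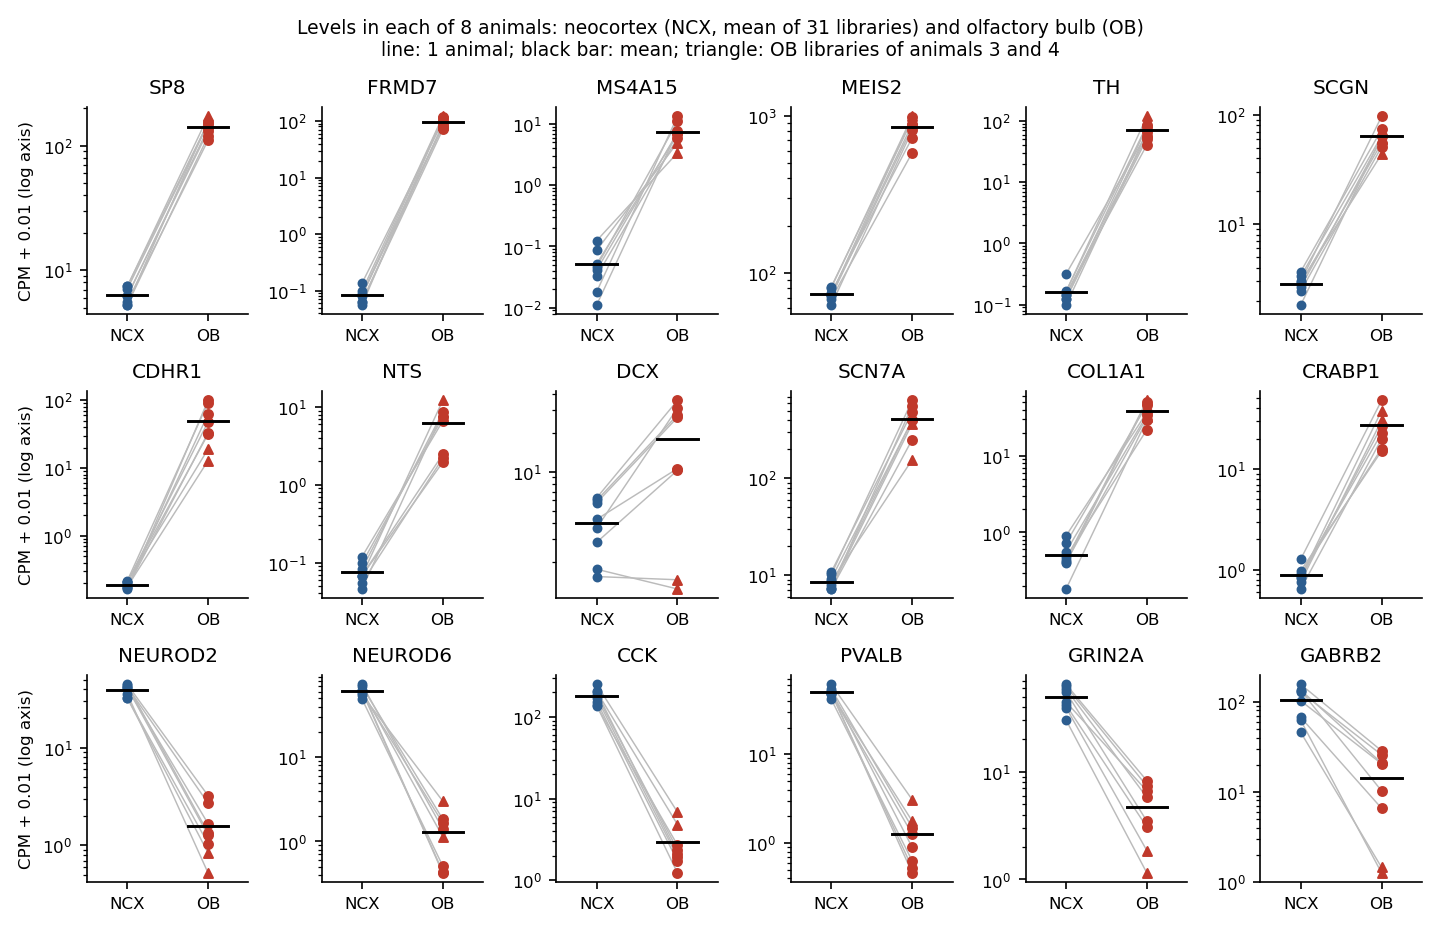
CPM plus 0.01 (log axis) of 18 genes in the neocortex (NCX, blue, mean of 31 libraries) and the OB (red) of each of 8 animals, joined by a line for each animal, with black bars for the means and triangles for the OB libraries of animals 3 and 4. Neocortex and OB levels are separate in every gene but *DCX*, where animals 4 and 3 had 1.23 and 1.45 CPM in the OB and the other 6 animals 10.2 to 35.4 CPM.

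Of 18 transcription factor genes of OB interneurons, 15 were tested, 14 of which were higher in the OB and 1 lower, with a median log2FC of 1.88. *ZIC1*, a zinc finger factor of interneuron progenitors, had 69.2 to 117 CPM in the OB and 3.92 to 6.25 CPM in the neocortex (log2FC 4.28 ± 0.10, FDR = 5.47e-12). *MEIS2*, a homeobox gene of granule and periglomerular cells, had 583 to 991 CPM (median 865) and 62.8 to 82.1 CPM (log2FC 3.50 ± 0.08, FDR = 8.51e-12). *SP9*, the paralog of *SP8*, had 17 to 37.9 CPM and 1.62 to 3.49 CPM (log2FC 3.22 ± 0.14). For all 3 the OB level exceeded every neocortex library of the same animal in 8 of 8 animals. *SIX3*, *SALL3*, *TSHZ1*, *DLX1*, *DLX6*, *ZIC2*, *GSX2*, *ETV1* and *PAX6* were also higher, with log2FC from 1.16 to 3.08, although the ranges of *GSX2* overlapped and it was higher in 6 of 8 animals. *DLX2* and *DLX5* were not analysed here. Summed over the list, the OB had 1678 to 2327 CPM and the neocortex 342 to 384 CPM.

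The 9 genes of GABA and dopamine transmission had 6 higher members, none lower and 3 not called, with a median log2FC of 1.05. The dopamine members carried the largest values. *TH*, tyrosine hydroxylase, the rate-limiting enzyme of dopamine synthesis, had 40.8 to 119 CPM in the OB (median 63.9) and 0.0889 to 0.307 CPM in the neocortex (log2FC 8.81 ± 0.22, FDR = 1.12e-11). *DDC*, the decarboxylase of the next step, had 11.7 to 25.4 CPM and 0.0724 to 0.284 CPM (log2FC 7.11 ± 0.22). The transporter genes were rarer. The dopamine transporter gene *SLC6A3* had 0.307 to 5.91 CPM in the OB (log2FC 6.87 ± 0.52), and the vesicular monoamine transporter gene *SLC18A2* had 1.23 to 3.30 CPM in the OB and 0.392 to 0.759 CPM in the neocortex (log2FC 1.68 ± 0.24). *TH*, *DDC* and *SLC6A3* in the OB had means below those of the substantia nigra and ventral tegmental area only, the former at 1333, 288 and 508 CPM.

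The GABA synthesis genes *GAD1* and *GAD2* were close to the fold threshold, with log2FC of 1.05 and 1.04. *SLC32A1*, the vesicular GABA transporter, had 80.1 to 160 CPM in the OB and 58.3 to 78.0 CPM in the neocortex, a log2FC of 0.82 ± 0.08 that passed the FDR (1.48e-06) but not the fold.

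Of 11 genes of mitral and tufted cells, 7 were tested, of which 4 were higher in the OB and 3 lower, with a median log2FC of 1.19. *CDHR1*, a photoreceptor and mitral cell cadherin, had 12.8 to 99.1 CPM in the OB (median 40.5) and 0.154 to 0.206 CPM in the neocortex (log2FC 7.81 ± 0.33, FDR = 6.11e-10). The neurotensin gene *NTS* had 1.95 to 12.2 CPM and 0.0356 to 0.108 CPM (log2FC 6.33 ± 0.33). The homeobox gene *LHX1*, near the floor of 3 counts, had 0.0836 to 0.750 CPM in the OB (log2FC 4.63 ± 0.75). Its OB level was above every neocortex library of the same animal in 5 of 8 animals. *RELN*, which encodes the secreted glycoprotein reelin, was higher at a log2FC of 1.19. By contrast the peptide gene *CCK* had 1.22 to 6.84 CPM in the OB and 135 to 249 CPM in the neocortex (log2FC -6.06 ± 0.18, FDR = 2.79e-11), and *TBR1* and the glutamate transporter gene *SLC17A6* had log2FC of -3.42 and -1.58. The OB levels of *CDHR1* were lowest in animals 3 and 4 (12.8 and 19 CPM, against 31.6 to 99.1 CPM in the others). The summed level of the list in the OB, 131 to 671 CPM, overlapped with that in the neocortex, 384 to 501 CPM.

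Of the 12 calcium-binding protein and peptide genes that divide interneurons into classes, 3 were higher, 8 lower and 1 not called, with a median log2FC of -2.11. The largest negative values belonged to markers of cortical classes. The parvalbumin gene *PVALB* had 0.450 to 3.07 CPM in the OB and 41.5 to 61.4 CPM in the neocortex (log2FC -5.48 ± 0.21, FDR = 3.13e-10), and the somatostatin gene *SST* had 0.757 to 7.35 CPM and 74.3 to 159 CPM (log2FC -5.43 ± 0.21, FDR = 2.84e-10). The neurokinin B gene *TAC3* followed (log2FC -4.81 ± 0.23), and *VIP*, *TAC1*, *CALB1*, *NPY* and *PNOC* had log2FC from -2.56 to -1.55. The 3 higher members were *SCGN* (secretagogin), with 43.6 to 96.5 CPM in the OB and 1.82 to 3.68 CPM in the neocortex (log2FC 4.45 ± 0.13, FDR = 2.76e-11), the proenkephalin gene *PENK* (log2FC 3.35) and the calretinin gene *CALB2* (log2FC 2.01). *CRH* had 12.3 to 25.5 CPM in the OB and 23.2 to 37.3 CPM in the neocortex, a log2FC of -0.75 ± 0.09 short of the fold threshold.

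Genes of cortical projection neurons were mostly lower in the OB, 11 of 15 tested, with 1 higher and 3 not called and a median log2FC of -1.90. The basic helix-loop-helix genes *NEUROD6* and *NEUROD2* had 0.412 to 3.00 and 0.512 to 3.23 CPM in the OB against 49.3 to 73.3 and 32.4 to 44.6 CPM in the neocortex (log2FC -5.70 ± 0.26 and -4.70 ± 0.18). *RORB*, a nuclear receptor of layer 4 neurons, had a log2FC of -4.01 ± 0.20. *BCL11B*, a marker of deep-layer neurons in the neocortex that striatal and OB interneurons also express, was higher in 8 of 8 animals (log2FC 1.74), with overlapping ranges of 2.56 to 23.2 CPM and 1.51 to 4.60 CPM. *CUX1* (log2FC 0.04 ± 0.10, FDR = 0.763) and *TLE4* (log2FC -0.03 ± 0.06, FDR = 0.673) overlapped between the groups.

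Genes of migrating neuroblasts and the cell cycle had 8 of 12 members higher, none lower and 4 not called, with a median log2FC of 1.23, or 1.47 without animals 3 and 4. *PROK2*, a chemoattractant of neuroblasts in the rodent OB, had 4.86 to 14 CPM in the OB and 0.816 to 1.45 CPM in the neocortex (log2FC 3.08 ± 0.18). *SOX11* had 1.66 to 3.07 CPM and 0.450 to 0.817 CPM (log2FC 1.85 ± 0.15). The cell cycle gene *MKI67* was rare on both sides, with 0.141 to 0.450 CPM in the OB and 0.0358 to 0.188 CPM in the neocortex, and these ranges overlapped (log2FC 1.82 ± 0.39, FDR = 0.00113). *DCX*, the microtubule-associated protein doublecortin of immature neurons, was called higher (log2FC 1.78 ± 0.31, FDR = 0.000229) but was higher in 6 of 8 animals only. Its OB levels were 10.2 to 35.4 CPM in 6 animals and 1.23 and 1.45 CPM in animals 4 and 3, whose neocortex levels of 1.75 and 1.54 CPM were also the lowest. Without these animals its log2FC was 2.17. *TUBB3* (log2FC 0.63 ± 0.07) and *DPYSL3* (0.00 ± 0.09), which mature neurons also express, were not called.

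Retinoic acid is made from retinol in the adult OB and acts on interneuron turnover. Of 16 genes of this pathway, all tested, 6 were higher, 2 lower and 8 not called, with a median log2FC of 0.56. The genes of both retinoic acid binding proteins were higher, and which cell types carried the transcripts of this list was not tested. *CRABP1* had 15.0 to 47.7 CPM in the OB and 0.636 to 1.27 CPM in the neocortex (log2FC 4.84 ± 0.20, FDR = 4.18e-10), and *CRABP2* had 4.35 to 22.7 CPM and 0.728 to 1.38 CPM (log2FC 3.60 ± 0.28). Of the retinaldehyde dehydrogenases that make retinoic acid, *ALDH1A3* (10.8 to 26.7 CPM against 1.35 to 2.62 CPM, log2FC 3.01 ± 0.15) and *ALDH1A2* (9.22 to 19.8 CPM against 1.46 to 2.02 CPM, log2FC 2.92 ± 0.18) were higher. Another, *ALDH1A1*, had 173 to 257 CPM in the OB and 199 to 283 CPM in the neocortex (log2FC -0.15 ± 0.10, FDR = 0.191). The retinol uptake receptor gene *STRA6* (log2FC 1.81) was higher, and the receptor gene *RARB* (-1.93) and the degrading enzyme gene *CYP26B1* (-1.91) lower. *RXRB* had a log2FC of -0.18 ± 0.05.

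**Figure D3:**
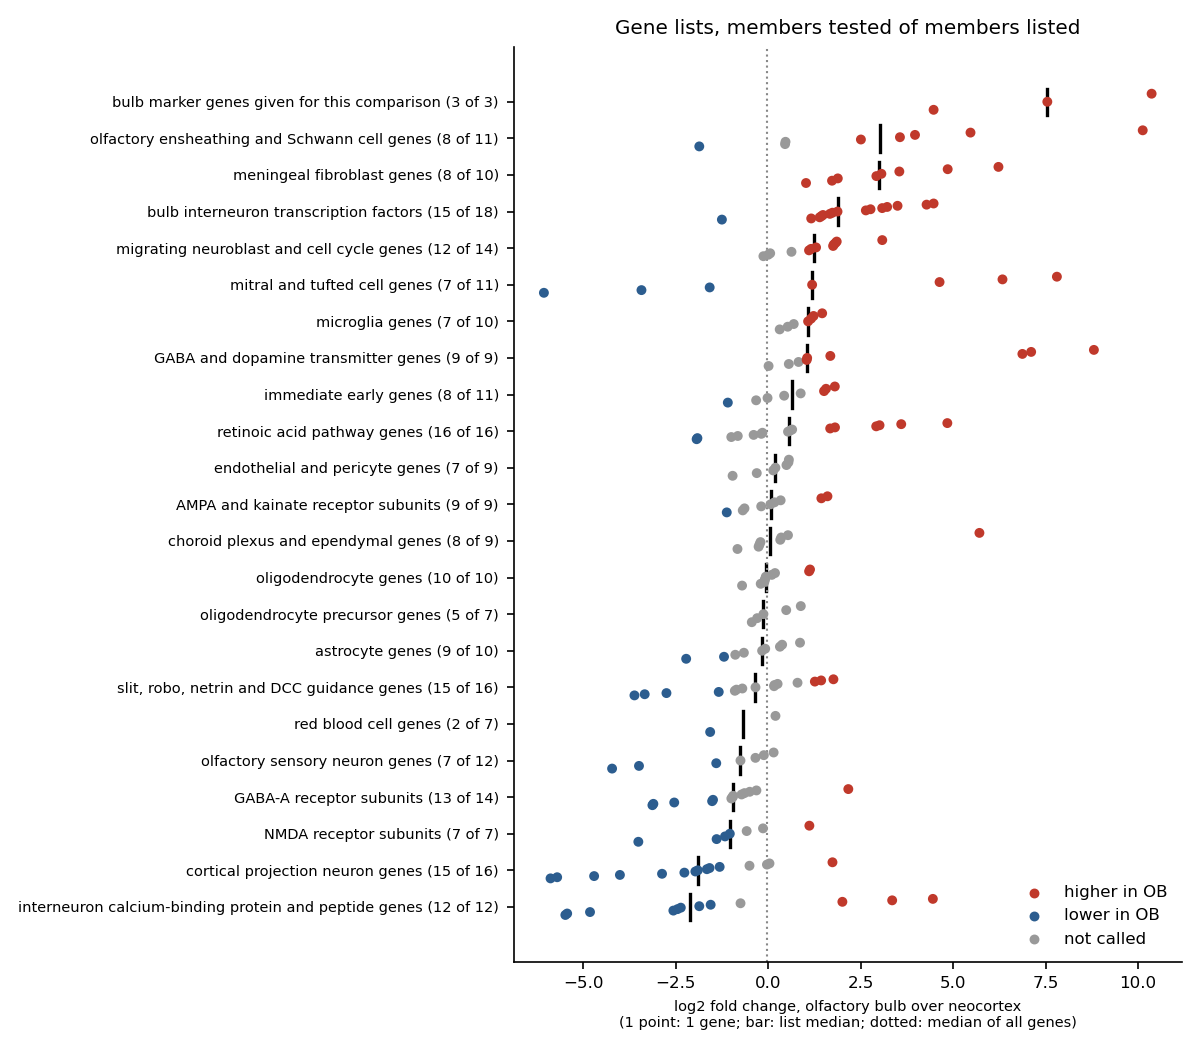
log2FC of OB over neocortex (x axis) for the tested members of 23 gene lists (y axis, with members tested of members listed), ordered by the list median. Each point is a gene, red if called higher, blue if called lower and grey if not called, the black bar is the list median and the dotted line the median of all genes at -0.03. The lists of ensheathing cells, meningeal fibroblasts and OB interneuron factors have the largest medians after the 3 markers, and those of cortical projection neurons and interneuron classes the lowest.

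Receptor subunit genes are described by family, and whether the families differed from each other or from all genes was not tested. Of 9 AMPA and kainate receptor subunits, 2 were higher, 1 lower and 6 not called, with a median log2FC of 0.06. *GRIA1* had 587 to 871 CPM in the OB and 214 to 270 CPM in the neocortex (log2FC 1.44 ± 0.07, FDR = 3.28e-09). *GRIK3* had 8.49 to 51 CPM in the OB and 5.37 to 15.9 CPM in the neocortex (log2FC 1.6 ± 0.16), and was higher in 8 of 8 animals although the ranges overlapped. *GRIA2*, the subunit that sets calcium permeability, had a log2FC of 0.06 ± 0.11 and *GRIK2* of 0.17 ± 0.12. *GRIA3* was lower (log2FC -1.12 ± 0.20), but without animals 3 and 4 its log2FC of -0.79 no longer passed the fold threshold.

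Of the 7 NMDA receptor subunits, 4 were lower, 1 higher and 2 not called, with a median log2FC of -1.04. *GRIN2A*, a subunit of mature synapses, had 1.14 to 8.25 CPM in the OB and 30.2 to 64.8 CPM in the neocortex (log2FC -3.51 ± 0.18, FDR = 3.76e-09). *GRIN2C* was the higher member (23.8 to 44.1 CPM against 10.7 to 15.3 CPM, log2FC 1.11 ± 0.08). *GRIN3A* had a log2FC of -1.39 ± 0.14, *GRIN3B* of -1.17 ± 0.36 and *GRIN2D* of -1.04. *GRIN3B* was near the floor, with at most 0.621 CPM in the OB and 0.179 to 1.31 CPM in the neocortex. Without animals 3 and 4, *GRIN2D* (-0.91) was no longer called and 3 subunits were lower. The obligatory subunit gene *GRIN1* had 311 to 535 CPM in the OB and 530 to 644 CPM in the neocortex, slightly overlapping ranges, with the OB below the neocortex of the same animal in 8 of 8 animals (log2FC -0.58 ± 0.08, short of the fold threshold). *GRIN2B* had a log2FC of -0.14 ± 0.27.

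Of 13 GABA-A receptor subunits tested, 5 were lower, 1 higher and 7 not called, with a median log2FC of -0.96, or -0.73 without animals 3 and 4. *GABRB2* had 1.24 to 28.5 CPM in the OB and 45.6 to 156 CPM in the neocortex (log2FC -3.13 ± 0.28, FDR = 6.54e-07). It was lowest in the OB of animals 3 and 4, and without them its log2FC was -2.77. *GABRG3* and *GABRA6* were lower, with log2FC of -1.49 and -2.54. *GABRA6* was near the floor, with at most 0.414 CPM in the OB and 0.675 to 1.28 CPM in the neocortex. The higher member was *GABRE* (10.2 to 22.3 CPM against 1.66 to 5.12 CPM, log2FC 2.17 ± 0.17). *GABRA5* (-0.64 ± 0.11) and *GABRD* (-0.32 ± 0.07) did not reach the fold threshold.

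Axon guidance genes of the slit, robo, netrin and DCC families guide neuroblasts and OB axons during development. Of 15 tested, 3 were higher, 4 lower and 8 not called, with a median log2FC of -0.34. *SLIT2* had 4.98 to 10.4 CPM in the OB and 74.9 to 99.3 CPM in the neocortex (log2FC -3.61 ± 0.09, FDR = 1.42e-11), whereas the slit receptor genes *ROBO1* and *ROBO2* were higher (log2FC 1.43 and 1.26). The netrin gene *NTN4* had 86.0 to 186 CPM and 37.4 to 46.7 CPM (log2FC 1.76 ± 0.12), and the OB had the highest mean of the 51 sub-regions. *NTNG2* (-3.34 ± 0.15), *UNC5A* (-2.75 ± 0.12) and *UNC5D* (-1.34) were lower, of which *UNC5D* (-0.99) was no longer called without animals 3 and 4. *NEO1* (0.26 ± 0.07) and *NTNG1* (0.16 ± 0.12) were not called.

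Markers of some other cells that an OB dissection can hold were mostly higher in the OB. Of 8 tested genes of olfactory ensheathing and Schwann cells, 5 were higher, 1 lower and 2 not called, with a median log2FC of 3.04 that did not change when *FOXD3* was set to its lower bound. Summed over the list, the OB had 681 to 1496 CPM and the neocortex 277 to 385 CPM. The sodium channel gene *SCN7A* had 156 to 639 CPM in the OB (median 399) and 7.18 to 10.8 CPM in the neocortex (log2FC 5.47 ± 0.20, FDR = 1.63e-10). The neural crest factor gene *FOXD3*, with 1.76 to 6.44 CPM in the OB, had at most 3 counts in each summed neocortex and was at least 389-fold higher in the OB against a floor of 3 counts per summed neocortex. The cadherin gene *CDH19* (62.8 to 216 CPM against 7.46 to 14.2 CPM, log2FC 3.56 ± 0.22), the neurotrophin receptor gene *NGFR* (3.97 ± 0.17) and *FRZB* (2.51) were higher too, and the lower member was *NPY*, which ensheathing cells share with interneurons. *ERBB3* (0.47 ± 0.06), which oligodendrocytes also use, was not called. *SOX10*, *FABP7* and *S100B* were not analysed here.

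All 8 tested genes of meningeal fibroblasts were higher, with a median log2FC of 2.99. Their sum was 350 to 831 CPM in the OB and 49.9 to 93.0 CPM in the neocortex, and none of the 8 was at 0 in either. The collagen genes *COL1A1* (21.9 to 52.6 CPM against 0.173 to 0.897 CPM, log2FC 6.23 ± 0.24) and *COL1A2* (44.7 to 138 CPM against 1.15 to 5.39 CPM, log2FC 4.85 ± 0.17) led the list. The proteoglycan genes *OGN* and *LUM* had log2FC of 3.55 ± 0.18 and 3.06 ± 0.21, and *DCN*, *COL3A1*, *ISLR* and *FOXC1* from 1.02 to 2.93. The part of meningeal tissue in the higher levels of matrix genes such as *MFAP4* and *MYOC*, or of *CRABP2* and *ALDH1A2*, was not tested.

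Of 7 microglia genes tested, 4 were higher and 3 not called (median log2FC 1.08), with a sum of 130 to 254 CPM in the OB and 94.1 to 145 CPM in the neocortex. *ITGAM* (log2FC 1.46 ± 0.12), *C1QC* (1.23 ± 0.13), *TREM2* (1.16 ± 0.14) and *C1QB* (1.08 ± 0.12) were higher in 8 of 8 animals, whereas *CSF1R* (0.69 ± 0.12) and *P2RY12* (0.31 ± 0.12) stayed below the fold threshold. The part of microglia and blood cells in the level of *KLRB1* was not tested. Of 10 oligodendrocyte genes, 2 were higher, *CLDN11* among them (log2FC 1.11 ± 0.11), and the other 8 not called, *MBP* among them (-0.20 ± 0.15). None of 5 oligodendrocyte precursor genes was called, with *OLIG2* at -0.44 ± 0.06 and *PDGFRA* at -0.30 ± 0.05, but without animals 3 and 4 the proteoglycan gene *VCAN* was called higher (1.01, against 0.88 with all animals). Of 9 astrocyte genes, the glutamate transporter gene *SLC1A2* (9.84 to 167 CPM against 123 to 424 CPM, log2FC -2.22 ± 0.30) and *FGFR3* (-1.19 ± 0.11) were lower, and *SLC1A3* (0.32 ± 0.08) and *GFAP* (0.86 ± 0.16) not called. *SLC1A2* was lowest in the OB of animals 3 and 4 (9.84 and 11.8 CPM), and its log2FC without them was -1.82. Without them the angiotensinogen gene *AGT* was also called lower (-1.04, against -0.89 with all animals).

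The lists of other cell types had median log2FC near that of all genes for oligodendrocytes (-0.07), their precursors (-0.13), astrocytes (-0.16), endothelial cells and pericytes (0.20) and choroid plexus and ependyma (0.06), and of -0.75 for olfactory sensory neurons. None of 7 endothelial and pericyte genes was called, with *RGS5* at a log2FC of -0.96 ± 0.15 and *PDGFRB* at 0.20 ± 0.08. Of 8 choroid plexus and ependymal genes only the water channel gene *AQP1* was higher (88.3 to 240 CPM against 1.92 to 3.72 CPM, log2FC 5.71 ± 0.20), while *TTR*, the defining transcript of choroid plexus, had a log2FC of 0.54. Choroid plexus as well as ensheathing and other peripheral glia express *AQP1*, and which cells carried it here was not tested. Of 2 red blood cell genes tested, 1 was lower, and *HBA* had 3.06 to 13.1 CPM in the OB and 3.17 to 9.74 CPM in the neocortex and was not called (log2FC 0.20 ± 0.12). Genes of olfactory sensory neurons, whose cell bodies lie in the nasal epithelium, were not higher. Of 7 tested, 3 were lower, namely *RTP1* (log2FC -4.22 ± 0.32), *ANO2* (-1.40 ± 0.22) and *GNG13*, which was at least 3.51-fold lower against a floor of 3 counts per OB library. *ADCY3* (-0.34 ± 0.07) and *GNG8* (0.15 ± 0.23) were not called, and the defining marker *OMP* was not analysed here.

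Immediate early genes, which neuronal activity and handling of tissue both induce, had 3 of 8 members higher, 1 lower and 4 not called, with a median log2FC of 0.66. *FOS* had 61.0 to 211 CPM in the OB and 28 to 96.2 CPM in the neocortex (log2FC 1.51 ± 0.12, FDR = 1.6e-07), *NR4A1* a log2FC of 1.56 ± 0.15 and *NPAS4* of 1.80 ± 0.18. All 3 were higher in 8 of 8 animals, although the ranges of the groups overlapped. *EGR2* was lower (log2FC -1.09 ± 0.22) with all animals and at -0.82 no longer called without animals 3 and 4, whereas *FOSB* was then called higher (1.18, against 0.88 with all animals). *JUNB* (0.43 ± 0.10) and *ARC* (-0.32 ± 0.14) were not called.

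**Figure D4:**
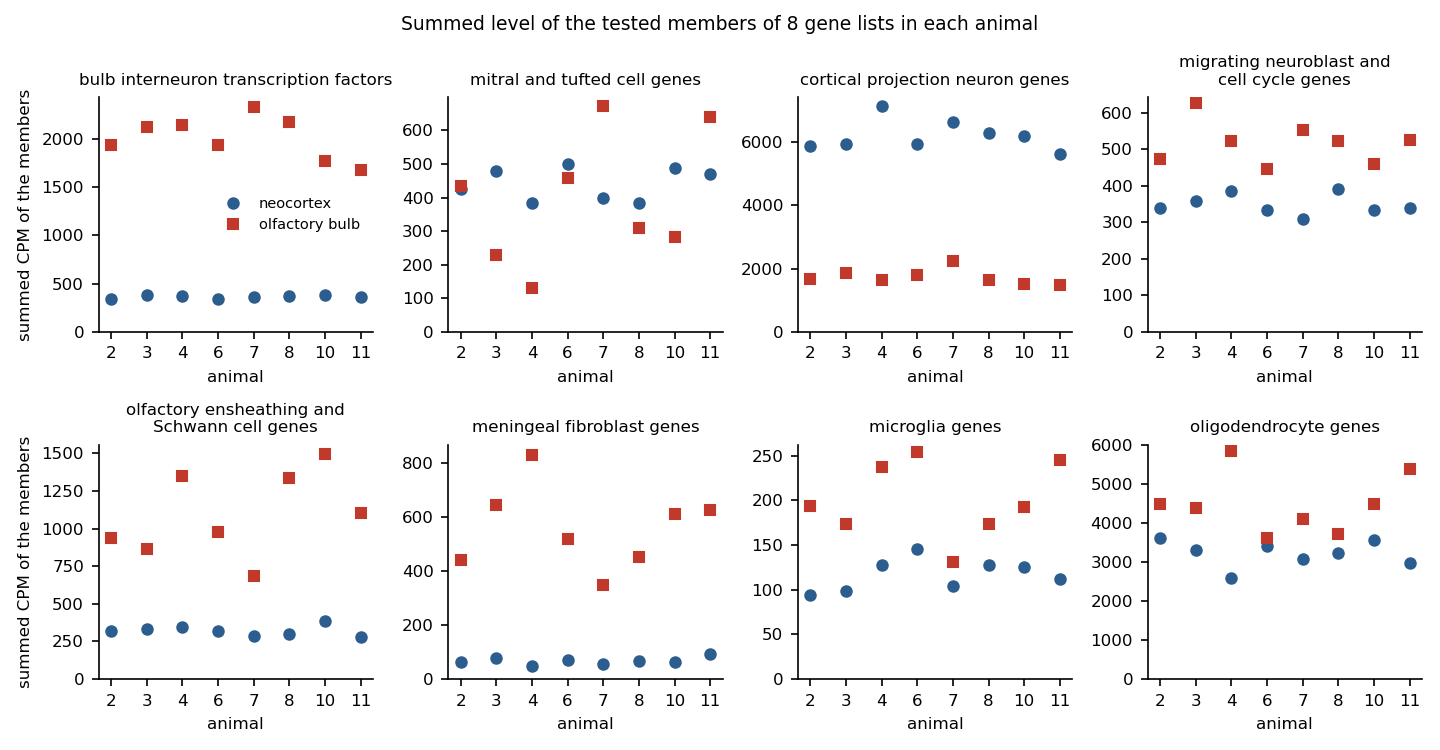
Summed CPM (y axis, from 0) of the tested members of 8 gene lists in the OB (red squares) and the neocortex (blue circles, mean of 31 libraries) of each of 8 animals (x axis). The OB lies above the neocortex in every animal for interneuron factors, neuroblast, ensheathing, meningeal, microglia and oligodendrocyte genes, below it for cortical projection neuron genes, and on either side of it for mitral and tufted cell genes (131 to 671 CPM against 384 to 501 CPM).

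Levels in the other sub-regions showed how far the differences were shared. The OB had the highest mean of the 51 sub-regions for 602 of the 2230 genes called higher (27%), against 4.71% of all tested genes. Among the genes named for their size, these were *SP8*, *FRMD7*, *MS4A15*, *KLRB1*, *TMEM41A*, *CDHR1*, *WDR64*, *MFAP4* and *C1QL4*. Examples among the list members were *MEIS2*, *SP9*, *SCGN*, *PROK2*, *CRABP2*, *SCN7A*, *AQP1*, *COL1A2*, *OGN* and *DCX*. Others had a higher mean elsewhere, such as *NTS* in the thalamus (615 CPM) and *ZIC1* in the cerebellum vermis (911 CPM). *CRABP1* reached 71.1 CPM in the accumbens nucleus, *MYOC* 60.5 CPM in the medulla oblongata and *NRK* 207 CPM in the cerebellar cortex. Leaving out the OB, the pituitary (pituitarium in the labels) was the highest sub-region for 666 of the genes called higher (29.9%), against 18.5% of all tested genes. The corpus callosum was the highest for 318 (14.3%), the same share as of all tested genes (14.3%). Of the genes called lower, the OB was the lowest sub-region for 136 (6.38%), against 2.57% of all tested genes. None of these shares is independent of the calls, which rest on the same OB and neocortex libraries.

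**Figure D5:**
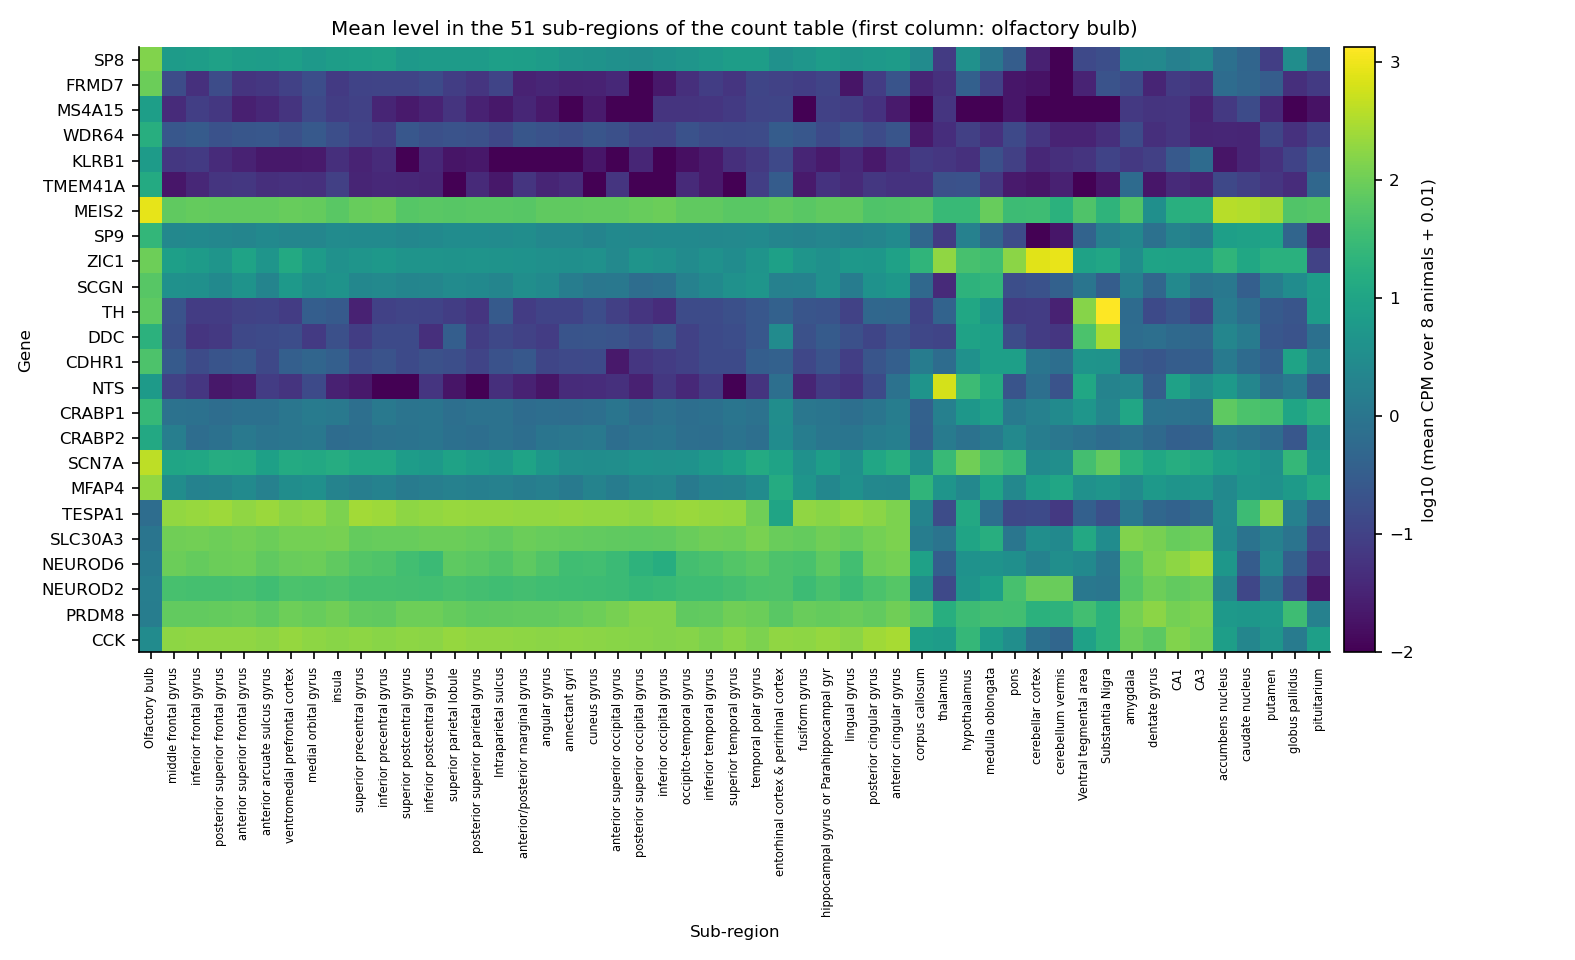
Mean CPM over 8 animals, as log10 after adding 0.01 (color scale), of 24 genes (rows) in the 51 sub-regions of the count table (columns, the OB first). *SP8*, *FRMD7*, *MS4A15*, *WDR64*, *KLRB1* and *TMEM41A* are brightest in the OB column, *TH* and *DDC* also in the substantia nigra and ventral tegmental area, and *TESPA1*, *SLC30A3*, *NEUROD6* and *PRDM8* dark in the OB and bright across the neocortex.

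The striatum (STR, the sum of its 3 sub-regions in each animal) holds mostly GABAergic neurons that arise, like those of the OB, in the ventral forebrain, and served as a second comparison that shares the OB libraries with the first. Of 16632 genes tested, 1706 (10.3%) were higher and 1644 (9.88%) lower in the OB than in the STR. The 3 markers remained far higher, with log2FC of 8.28 ± 0.17 for *SP8*, 7.73 ± 0.18 for *FRMD7* and 6.71 ± 0.61 for *MS4A15*. *SP8* was at 0.433 ± 0.251 CPM (SD) in the STR, below its neocortex level. *MEIS2* was abundant in the STR (332 CPM), and its log2FC over the STR was 1.35 ± 0.07 against 3.50 over the neocortex. *ZIC1* (2.58 ± 0.08), *SP9* (1.54 ± 0.19) and *SCGN* (6.02 ± 0.22) were also higher. *TH* (6.53 ± 0.24) and *CDHR1* (5.88 ± 0.32) were likewise higher, whereas *CRABP1* was lower than in the STR (-1.05 ± 0.15) and *NTS* had 0.97 ± 0.35.

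Genes were ranked by log2FC over the STR among those with at least 5 CPM on the higher side. Besides *SP8*, the largest values belonged to *C1QL4* and *WDR64* (8.27 ± 0.46). *C1QL4*, a synaptic C1q-like protein, was at least 88.8-fold higher in the OB against a floor of 3 counts per summed STR. On the lower side the genes were *HTR6* (63.7 CPM in the STR, -8.01 ± 0.19), the orphan receptor gene *GPR6* of indirect pathway neurons (112 CPM in the STR, -8.19 ± 0.23) and *RHAG*, at least 53.2-fold lower. Among the lists, 10 of 15 interneuron factors and 7 of 8 meningeal fibroblast genes were higher than in the STR. Of 15 cortical projection neuron genes 4 were higher and 3 lower than in the STR, and of 7 microglia genes 0 were called. Whether these counts differ from those against the neocortex was not tested. *NEUROD2* (0.80 ± 0.55), *CCK* (-0.62 ± 0.36) and *SLC30A3* (-0.86 ± 0.41) did not pass the test against the STR. Of 10 oligodendrocyte genes 8 were lower than in the STR, *MBP* at a log2FC of -1.64 ± 0.16.

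The difference between OB and neocortex was also tested for a dependence on age stage and on sex, each adjusted for the other. Of 18539 genes, 0 (0%) passed FDR < 0.05 for age stage and 0 (0%) for sex. At an unadjusted p under 0.05 there were 557 genes (3.00%) for age stage and 467 (2.52%) for sex, and the lowest FDR were 0.201 and 1. DESeq2 called 13 genes for age stage and 3 for sex. Without animals 3 and 4, edgeR called 8 and 1.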

How the data were processed

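RNA of brain sub-regions from 8 rhesus macaques was sequenced after ribosomal RNA removal with a directional kit. The count table used here covers 51 of the sub-regions, and the midbrain libraries were not analysed here. The deposited values are raw counts per Ensembl 91 gene, which the authors made with HTSeq 0.6.1 from HISAT2 2.0.5 alignments to Mmul 8.0.1 (Trim Galore 0.4.4 where read quality was poor). How HTSeq treated strand and overlaps is not given in the sources used here, and values of genes that overlap another gene, lie antisense to it or have a close copy are uncertain. Of 30807 genes, 17572 took a symbol from a reference table and 515 from the supplement of the study alone. 2367 genes shared a symbol and were not named.

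Counts of the 31 neocortex and of the 3 STR libraries were summed within each animal. Tests used R 4.3.3, edgeR 4.0.16 and limma 3.58.1 (filterByExpr, TMM, quasi-likelihood F test, animal as a block, Benjamini-Hochberg adjustment), and the SE is the absolute log2FC divided by the square root of F. The STR entered as an additional group of the same model, and age stage and sex as interactions with the side. The OB and neocortex of the same animal deviated together from the means of their sides (r between 0.437 and 0.755, each of 8 animals best with its own), so that the numbers pair the samples. Where every library or sum of a group had at most 3 counts, a fold is a lower bound against 3 counts. Depth leaves low genes imprecise: 3 counts in an OB library are 0.141 to 0.311 CPM. The neocortex sums were deeper, with 297336760 to 428597814 counts on genes. Of the genes called lower, 349 were at the floor in the OB. Of those called higher, 6 were at the floor in the neocortex. With the animal as a block, the p-values rest on how far the differences between the sides varied among these 8 animals. No pair of libraries had identical counts. Tables were read with Python 3.11.15, pandas 2.3.3, numpy 2.4.6 and scipy 1.17.1 and drawn with matplotlib 3.10.9. The tests were run on simulated data first.

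The gene lists, the markers and the tests were chosen with earlier results of these data known. Genes named are the 3 markers; in each direction the 12 genes (3 against the STR) with a symbol of their own, at least 5 CPM on the higher side, the same direction in 8 animals and the largest absolute log2FC among those called; and, for each list, the 4 called members with the largest absolute log2FC and the 2 most abundant of those not called. Further list members were chosen after their values were seen. Alternatives were DESeq2 1.42.0, its size factors, other filters and folds, no block, each animal left out, a thinned neocortex sum, 31 libraries kept apart, the frontal sub-regions alone and the neocortex with entorhinal and perirhinal cortex. The fit without animals 3 and 4 was added after seeing the data. ATAC-seq samples, assembled transcripts and mitochondrial shares were not analysed here. The values of some list members are not reported here.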

Additional observations from a re-analysis of the deposited data

Results flagged for a closer look

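In each group of 8 animals, the distance of the highest or lowest animal from its nearest neighbour was set against the range of the group. It passed Dixon's critical value at 95% for 8 samples in 26 of 240 groups (10.8%), counting the OB and the neocortex levels of 120 genes. Chance alone passes about 1 in 20 groups where values are normal. The levels were CPM without a log and genes can vary together, so the share of 10.8% cannot show an excess over chance. Animal 10 was the extreme animal in 7 groups, animal 3 in 6, animal 11 in 4, animals 6 and 7 in 3 each, animal 4 in 2 and animal 2 in 1.

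Animal 3 had the highest OB level, with 7.35 CPM for *SST* (0.757 to 3.59 CPM in the other 7), 468 CPM for *TUBB3* (294 to 373 CPM in the other 7) and 326 CPM for *GRIK2* (93.1 to 175 CPM in the other 7). Animal 6 had the highest OB level, with 11.9 CPM for *KL* (5.24 to 7.56 CPM in the other 7). Animal 7 had the highest OB level, with 38.5 CPM for *NRK* (12.4 to 23.6 CPM in the other 7), 21.7 CPM for *TMEM41A* (9.83 to 14.8 CPM in the other 7) and 871 CPM for *GRIA1* (587 to 719 CPM in the other 7). Animal 10 had the highest OB level, with 26.6 CPM for *EGR2* (6.15 to 14.7 CPM in the other 7) and 129 CPM for *ARC* (42.2 to 73.5 CPM in the other 7). Animal 11 had the highest OB level, with 44.1 CPM for *GRIN2C* (23.8 to 27.7 CPM in the other 7), 1800 CPM for *GFAP* (321 to 905 CPM in the other 7) and 13.1 CPM for *HBA* (3.06 to 7.58 CPM in the other 7).

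Animal 2 had the highest neocortex level, with 0.0559 CPM for *SLC6A3* (0.00636 to 0.0289 CPM in the other 7). Animal 3 had the highest neocortex level, with 0.284 CPM for *DDC* (0.0724 to 0.171 CPM in the other 7) and 0.188 CPM for *MKI67* (0.0358 to 0.103 CPM in the other 7). Animal 3 had the lowest neocortex level, with 0.858 CPM for *GPR6* (1.16 to 1.42 CPM in the other 7). Animal 4 had the highest neocortex level, with 0.307 CPM for *TH* (0.0889 to 0.155 CPM in the other 7) and 123 CPM for *SLC30A3* (85.3 to 96.7 CPM in the other 7). Animal 6 had the highest neocortex level, with 11.0 CPM for *RTP1* (5.20 to 7.47 CPM in the other 7). Animal 6 had the lowest neocortex level, with 5.22 CPM for *OTOS* (12.9 to 16.4 CPM in the other 7). Animal 10 had the highest neocortex level, with 3.41 CPM for *ANO2* (1.30 to 2.25 CPM in the other 7), 316 CPM for *ERBB3* (216 to 261 CPM in the other 7), 95.6 CPM for *NR4A1* (32.5 to 54.6 CPM in the other 7), 96.2 CPM for *FOS* (28 to 56.3 CPM in the other 7) and 73.3 CPM for *JUNB* (27.6 to 41.1 CPM in the other 7). Animal 11 had the highest neocortex level, with 14.9 CPM for *LUM* (2.48 to 5.19 CPM in the other 7).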

How the results depend on the processing

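Against the neocortex, 0 genes were called in the opposite direction under any of the 18 refits of all genes. The higher genes outnumbered the lower with all animals and a fold above 2, but not without a fold threshold, at a fold above 4, without animal 2 or with the frontal sub-regions alone. The medians of 2 lists near 0, choroid plexus (0.06) and oligodendrocyte precursors (-0.13), became -0.03 and 0.15 without animals 3 and 4. Without a fold threshold, 5849 genes were higher and 6541 lower in the OB than in the neocortex, and 5550 and 5603 against the STR. At a fold above 4 these counts were 730, 809, 622 and 560. With the neocortex sum thinned to the OB total, 14813 genes were tested, of which 1608 were higher and 1362 lower. Among these were 63.7% of the genes called higher and 63.5% of those called lower against the full sum. With the 31 libraries kept apart, 16125 genes were tested, of which 1915 were higher and 1605 lower. Among these were 72.3% and 75.1% of the genes called against the sum. Leaving out each animal in turn gave 2141 to 2290 higher and 2011 to 2189 lower genes against the neocortex, and 1656 to 1751 and 1593 to 1688 against the STR. Without the animal as a replicate block, 2265 genes were higher and 2018 lower than in the neocortex and 1691 and 1581 against the STR, and of the named genes *GRIA3* (-0.93) lost and *GFAP* (1.05) gained a call.

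For age stage, DESeq2 called 13 genes, a count above 1 in at least 3 profiles 6, no filter 20, leaving out each animal 0 to 3 and leaving out animals 3 and 4 together 8. For sex the corresponding counts were 3, 1, 6, 0 and 1. The cause of these changes was not tested. Without animals 3 and 4, an alternative chosen after seeing the data, the median log2FC of the 3 markers was 8.44 and that of the neuroblast list 1.47. Of 120 genes named by the rule, 113 had the same call under every alternative that tested them. The others, whose log2FC lay near the fold threshold, were *GRIA3*, *GRIN3B*, *GRIN2C*, *GFAP*, *C1QB*, *RGS5* and *EGR2*. Of the list members outside the rule, *GRIN2D* and *UNC5D* lost and *AGT*, *FOSB* and *VCAN* gained a call without animals 3 and 4. Genes with fewer than about 3 counts in an OB library could not be measured at this depth.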
